A study of Homo sapiens with 4 samples.

Results

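The IFIT, IFITM and IFI genes are families of interferon-induced genes, and 10 of them were followed here: IFIT1, IFIT2, IFIT3, IFIT5, IFITM1, IFITM2, IFI16, IFI35, IFI44 and IFI44L. Each was represented by the probe sets annotated to that gene alone, 14 probe sets in all, out of 11963 genes and 19064 single-gene probe sets on the array. The genes were selected on their names after earlier results of these same arrays had shown interferon-response genes higher with the p73 hairpin. Their ratios between the hairpins are therefore given as a description, with no test, and only the change with confluence was tested.

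The RNA came from BJ-TE cells, a line derived from the human foreskin fibroblast line BJ, and was measured on Affymetrix expression arrays with 1 intensity per probe set. The cells carried a short hairpin RNA (shRNA), either a control labelled ns or one against the transcription factor p73. Each kind was collected at 40% and at 100% confluence, which gave 4 groups of 1 array: ns shRNA at 40%, p73 shRNA at 40%, ns shRNA at 100% and p73 shRNA at 100%. By its title the series concerns p73 in malignant transformation. All arrays hold hairpin-carrying cells of 1 line, and the labels name 1 p73 shRNA. Nothing in the labels says that the cultures were separate, so p-values cover the spread among these 4 arrays alone, and their number limits the precision of every value. In bulk RNA, fewer expressing cells and less RNA per cell cannot be told apart.

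Median intensity per array was 105 to 122. The p73 shRNA array at 40% had the brightest upper end, with a 99th percentile of 13157 against 10196 to 11420 on the others. TP73, the gene of p73, was listed at 1.65 to 2.09 on the arrays, between the 2.18th and 3.84th percentile, and so gives no check on the hairpin. Of 16 fibroblast markers 15 lay above the brightness filter used below, against 0 of 11 measured blood cell markers, 0 of 6 epithelial and 0 of 6 endothelial ones. For plasmacytoid dendritic cells, a known source of interferon, 1 of 4 measured markers did so, TCF4, a transcription factor that is not restricted to them. The summed intensity of the blood cell markers was 180 to 292 per array, and that of the fibroblast markers was 90781 to 110933. That of the plasmacytoid dendritic cell markers was 1199 (ns) and 1508 (p73) at 40% and 3073 and 3341 at 100%. Without TCF4 it was 20.4 to 32.6.

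Type I interferons bind a cell surface receptor and activate Janus kinases, which switch on transcription factors. A complex that contains IRF9 then binds the interferon-stimulated response element (ISRE) in the promoters of its target genes. IFIT proteins bind viral RNA and hinder its translation, IFITM proteins sit in membranes and hinder the fusion of viruses with the cell, and IFI16 binds DNA and takes part in sensing it. Fibroblasts are a classical source of interferon beta and respond to it themselves.

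Promoter sequences are shown first because members that share an element can be compared by it. RefSeq promoters (GRCh38.p14; 250 bases before the annotated start site and 50 after it) were found for 8 of the 10 genes, with 11 start sites. The core of the ISRE was searched as GAAANNGAAA on both strands, where its reverse reads TTTCNNTTTC. Of the 8 genes 6 held it: IFIT1, IFIT3, IFIT5, IFITM1, IFI44 and IFI44L. Of all 27305 genes with a promoter, 1195 held it (4.38%), and so did 229 of the 5716 genes above the brightness filter that have a promoter there (4.01%). The 8 genes here are not the 8 members above that filter. They include IFI44L, which is below it, and lack IFITM2, which is above it. The following stretches lie on the plus strand and end before the start site, with each match in capitals.

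IFIT1, chr10:89392497-89392539: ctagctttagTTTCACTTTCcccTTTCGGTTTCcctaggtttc
IFIT3, first start, chr10:89327831-89327894: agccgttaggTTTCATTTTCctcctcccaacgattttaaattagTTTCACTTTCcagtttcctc
IFIT3, second start, chr10:89332425-89332497: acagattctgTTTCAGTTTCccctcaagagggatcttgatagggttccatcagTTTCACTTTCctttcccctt
IFIT5, chr10:89414513-89414567: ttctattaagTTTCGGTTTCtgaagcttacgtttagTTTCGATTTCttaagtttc
IFITM1, chr11:313990-314019: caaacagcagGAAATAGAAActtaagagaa
IFI44, chr1:78649761-78649788: gcacactgagTTTCAGTTTCctttctct
IFI44L, chr1:78620274-78620394: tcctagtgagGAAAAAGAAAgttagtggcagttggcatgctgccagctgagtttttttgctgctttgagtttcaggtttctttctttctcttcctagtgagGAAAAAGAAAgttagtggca

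In the IFIT genes, which neighbour each other on chromosome 10, every match read in the reverse orientation, whereas those of IFITM1 and IFI44L read forward. IFIT1 had its pair of matches 116 and 103 bases before the start site. In IFI44L the same 10 letters occurred 164 and 73 bases before it. Both IFIT5 and IFITM1 had a further match that crosses the start site, beginning 4 and 6 bases before it. IFI44 has a pair of annotated starts that share 1 match. No match was found in this window for IFI16 or IFI35, which says only that these letters are not in it. For IFI16 the windows searched begin at chr1:159008741 and chr1:159009657. The annotated gene begins before them, at chr1:158999976, and that end was not searched. The palindrome bound by STAT dimers, searched as TTCNNNGAA, which reads alike on both strands, was found in 2 of the 8, IFITM1 (overlapping the match at the start site) and IFI35, against 9.38% of all genes. A match is a description of the sequence and not a measured binding site.

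**Figure D1:**
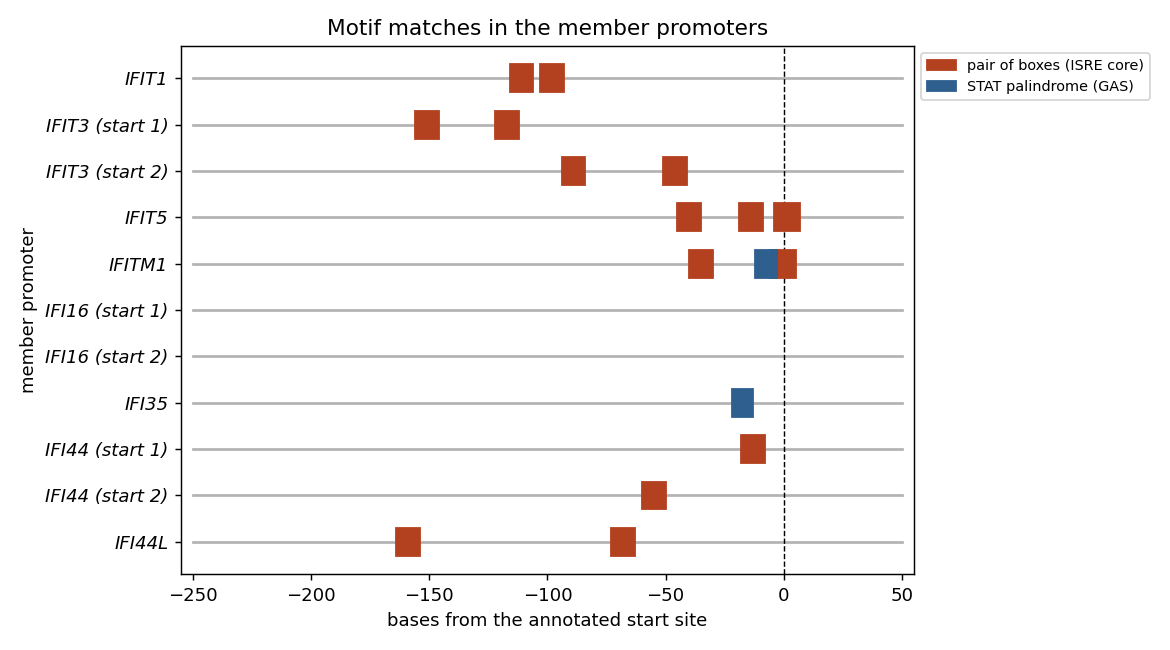
Positions of the motif matches (boxes) in the 11 member promoters, in bases from the annotated start site (dashed line); each grey line is the window searched, from 250 bases before the start site to 50 after it. Both starts of IFIT3 carry 2 matches of the ISRE core, and neither of the IFI16 starts searched carries a match of either motif.

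Values are given as deposited intensities, and ratios as differences of log2(intensity + 11.6), a scale that understates ratios of dim genes. Where a gene has several probe sets, the brightest by mean stands for it. Genes entered the tests when their mean reached 6.94 on the log2 scale, an intensity of about 111. Of the members 8 passed this filter and 2, IFIT2 and IFI44L, did not. None of the 8 passed through a single bright array, since their lowest intensity on any array was 365.5.

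IFIT1, which recognises RNA lacking the cap methylation of host messengers, had intensities of 1182 with ns shRNA and 1594 with p73 shRNA at 40% confluence, and of 1017 and 2750 at 100%. The p73 shRNA array of confluent cells was the high one, and the control arrays were both below either p73 array. The log2 ratio of p73 to ns shRNA was 0.43 at 40% and 1.43 at 100%, the widest gap between stages among the 8 members above the filter. IFIT3, a partner that binds IFIT1 and stabilises its hold on RNA, had 573 and 810 at 40%, and 556 and 1020 at 100%. Its order of arrays was that of IFIT1, with ratios of 0.49 and 0.86.

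IFIT5, an RNA-binding member of the family, differed from these at 40%. Its brighter probe set had 387 (ns) and 376 (p73) at 40% and 366 and 548 at 100%, so that only the p73 shRNA array of confluent cells stood above the rest. Its ratios were -0.04 and 0.57. The second probe set of IFIT5 had 306 and 238 at 40% and 292 and 360 at 100%, with ratios of -0.35 and 0.29. Both probe sets had their highest value on the same array. IFIT2, an RNA-binding relative of IFIT1 and IFIT3, was dim and flat across the hairpins, with 99.9 (ns) and 99.2 (p73) at 40% and 82.0 and 80.3 at 100%. Being below the filter, its single probe set does not show whether the gene changed.

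IFITM1, found mostly at the cell surface, spanned the widest range of the 8 members above the filter. Its intensities were 790 (ns) and 1651 (p73) at 40% and 3556 and 6488 at 100%. The highest array was 8.22 times as bright as the lowest. Both arrays of confluent cells lay above both arrays at 40%, and p73 shRNA lay above ns shRNA at each stage, by log2 ratios of 1.05 and 0.87. IFITM1 was the only one of the 8 whose ratio was smaller at 100% than at 40%. IFITM2, found mostly in endosomal membranes, had 2350 and 3001 at 40% and 4211 and 6307 at 100%. It kept that order of arrays with smaller steps, the p73 ratios being 0.35 and 0.58.

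The IFITM2 probe set belongs to a class (suffix _x_at) that can bind related transcripts, and the IFITM genes are alike in sequence. Its value may include RNA of IFITM1 or IFITM3, and the genes cannot be told apart in it. A further probe set annotated to both IFITM1 and IFITM2 was left out by the rule. It had 904 and 1434 at 40% and 2848 and 5217 at 100%, the same order of arrays.

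IFI16 was lower with p73 shRNA at 40% and higher at 100%, as was IFIT5. Its brightest probe set had 1574 (ns) and 1238 (p73) at 40% and 3200 and 4007 at 100%, which gave ratios of -0.34 and 0.32. The other probe sets of the gene had ratios of 0.00 and 0.53, and of -0.12 and 0.34, the latter from a probe set of the _x_at class, which can bind related transcripts. All 3 were higher on both arrays of confluent cells than on either array at 40%, and all were highest with p73 shRNA at 100%. At 40% they differ from each other in how far p73 shRNA lies below ns shRNA, and 1 shows no gap.

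IFI35, a leucine zipper protein that binds the interferon-induced NMI, had 531 (ns) and 749 (p73) at 40% and 598 and 1125 at 100%, with ratios of 0.49 and 0.90. IFI44, a cytoplasmic protein of an interferon-induced family with a GTP-binding motif, had 452 and 696 at 40% and 638 and 1193 at 100%, with ratios of 0.61 and 0.89. A dimmer IFI44 probe set, below the filter, gave 33.3, 53.2, 52.1 and 110.9 in the same order of arrays and ratios of 0.53 and 0.94. In both genes the p73 shRNA array at 40% was brighter than the ns shRNA array at 100%, although the dimmer IFI44 probe set separated those arrays by only 53.2 against 52.1.

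IFI44L, the paralogue next to IFI44 on chromosome 1, was dim with ns shRNA at 40%, at the 30.1st percentile of that array, and reached the 61.9th percentile with p73 shRNA at 100%. Its intensities were 25.9 (ns) and 59.6 (p73) at 40% and 72.4 and 258.8 at 100%. As plain intensity ratios, p73 shRNA was 2.31 times ns shRNA at 40% and 3.58 times at 100%. The log2 ratios, damped by the added constant, were 0.93 and 1.69.

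**Figure D2:**
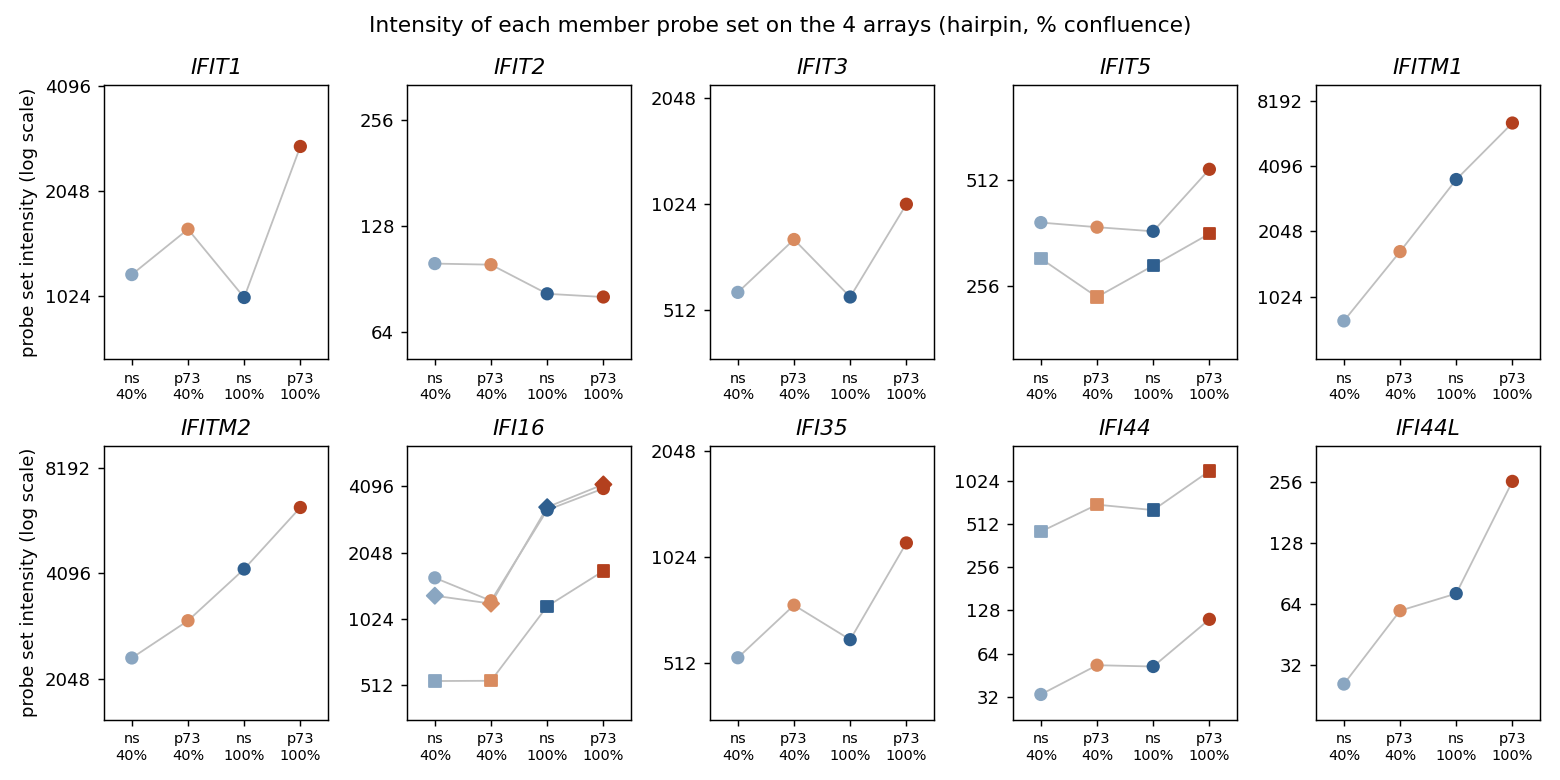
Intensity of every member probe set (log axis, scaled separately for each gene) on the 4 arrays, ordered by hairpin and confluence; each point is 1 array, grey lines join the points of a probe set, and markers tell the probe sets of a gene apart. The p73 shRNA array at 100% confluence is the highest for every probe set except that of IFIT2.

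Among the 8 members above the filter, 6 were higher with p73 shRNA at both stages, against 29.0% of the 6759 genes above the filter. Ratios of at least 1.5-fold were reached by 2 at 40% (IFITM1 and IFI44; 4.81% of all genes) and by 5 at 100% (IFIT1, IFIT3, IFITM1, IFI35 and IFI44; 1.89% of all genes). At 100%, IFITM2 and IFIT5 were just short of that fold. Both stages were past it for 2, IFITM1 and IFI44, and for 0.473% of all genes. Only 1 remained, IFITM1, when the probe sets of a gene were averaged or when a larger constant was added before the logarithm. The members' median log2 ratio was 0.46 at 40% and 0.86 at 100%, where that of all genes was 0.00 at each. Since the genes were picked with this comparison known, these counts describe them and do not test them. Under the other scalings, added constants and averaging of probe sets the ratios kept their sign at each stage, IFIT1 lying between 1.39 and 1.45 at 100% and IFI16 between -0.35 and -0.15 at 40%. The ratio was larger at 100% than at 40% for 7 of the 8, and for 3411 of all 6759 genes. This difference between stages has no test, since each group is 1 array.

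**Figure D3:**
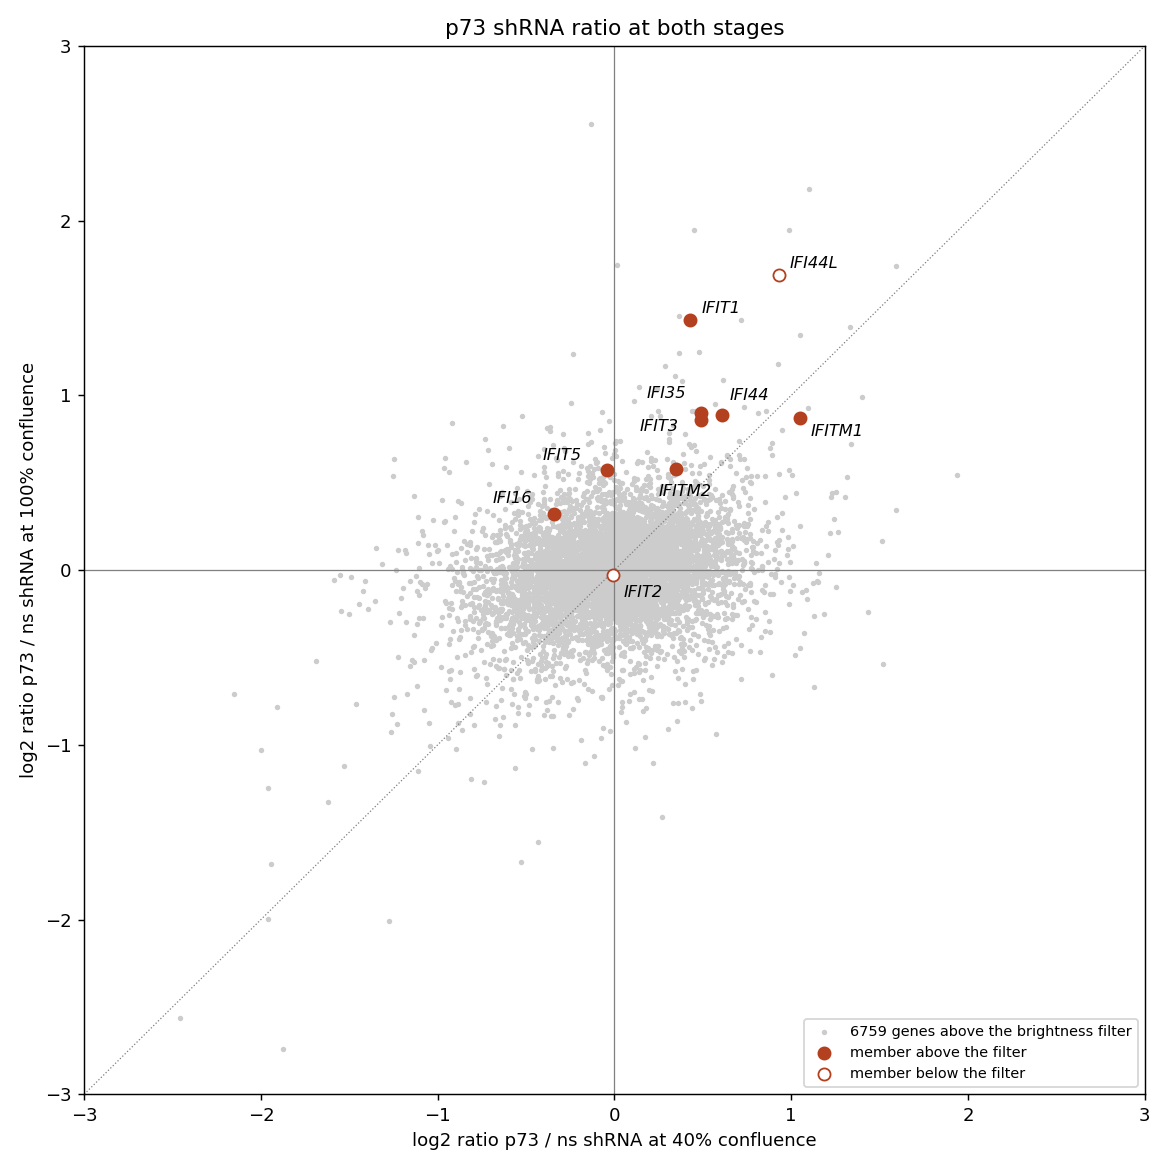
Log2 ratio of p73 to ns shRNA at 40% confluence (horizontal) and at 100% confluence (vertical) for the 6759 genes above the brightness filter (grey) and for the members (red; open circles lie below the filter); the dotted line marks equal ratios. IFITM1 lies right of the line of equal ratios, IFIT1 and IFI44L lie high above it, IFI16 and IFIT5 lie left of zero, and IFIT2 lies near the origin.

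The design text names the stages of confluence, and 100% was set against 40% with 1 array of each hairpin on either side. IFITM1, IFITM2, IFI16 and IFI44 rose at confluence, and the 3 IFIT genes tested and IFI35 did not pass. That is 4 of 8 members higher, against 20.4% of all genes tested, and 0 lower, against 16.1% (limma, Benjamini-Hochberg adjusted p below 0.05 over 6759 genes, an additive model of confluence and shRNA). IFITM1 and IFITM2 may not be separate calls, since the IFITM2 probe set may include RNA of IFITM1. IFITM1 rose by 2.06 on the log2 scale (SE 0.15, limma adjusted p 4.29e-42), 2.15 with ns shRNA and 1.97 with p73 shRNA, which placed it at the 99.4th percentile of all genes. IFI16 rose by 1.35 (SE 0.15, limma adjusted p 3.16e-18), by 1.02 with ns shRNA and 1.69 with p73 shRNA. Its other probe sets gave 1.11 and 1.64, and 1.33 and 1.79, the latter from the probe set of the _x_at class. IFITM2 rose by 0.95 (SE 0.14, limma adjusted p 3.93e-10) and IFI44 by 0.63 (SE 0.17, limma adjusted p 0.00185), each with both hairpins.

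These p-values take the error of a gene from the average spread at its brightness. That spread is the difference in confluence change between the hairpins, and not noise between replicates, which was not measured. When each gene's own spread was used in part, without the trend, IFITM1 had a limma adjusted p of 2.47e-07, IFI16 of 6.25e-05, IFITM2 of 0.000714 and IFI44 of 0.0135. The call of IFI44 was lost when the shRNA term was left out of the model (limma adjusted p 0.169). In that fit IFITM1 had a limma adjusted p of 0.00559, IFI16 of 0.00171 and IFITM2 of 0.0154. Without the brightness filter these were 1.91e-05, 0.000952 and 0.00174 (limma), and that of IFI44 was 0.0252.

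For IFIT1 the fitted change with confluence was 0.28 (SE 0.15, limma adjusted p 0.137), made of -0.22 with ns shRNA and 0.78 with p73 shRNA. IFIT3 had 0.14 (SE 0.17, limma adjusted p 0.556), from -0.04 and 0.33, and IFIT5 had 0.23 (SE 0.20, limma adjusted p 0.392), from -0.08 and 0.53. In the control cells these 3 genes had slightly lower values at 100% than at 40%, and in the p73 shRNA cells higher ones. IFI35 was higher by 0.17 and 0.58 with the hairpins, a fitted change of 0.37 (SE 0.17, limma adjusted p 0.077). Of the members left out by the filter, IFI44L was higher at confluence by 1.17 with ns shRNA and 1.93 with p73 shRNA. In the fit without a filter this gave 1.55 (SE 0.42, limma adjusted p 0.0407). IFIT2 was lower by -0.25 and -0.27, with a limma adjusted p of 0.722 in that fit. The beta-actin control's ratio of 3' to 5' intensity, a measure of RNA integrity, moved with confluence: 1.24 (ns) and 1.09 (p73) at 40%, and 1.47 and 1.38 at 100%. The same ratio of the GAPDH control moved less, at 0.935 (ns) and 0.979 (p73) at 40%, and 1.021 and 1.017 at 100%. TCF4 was also higher at 100%, as the marker sums above show. The part of RNA integrity or of TCF4 in these changes was not tested.

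**Figure D4:**
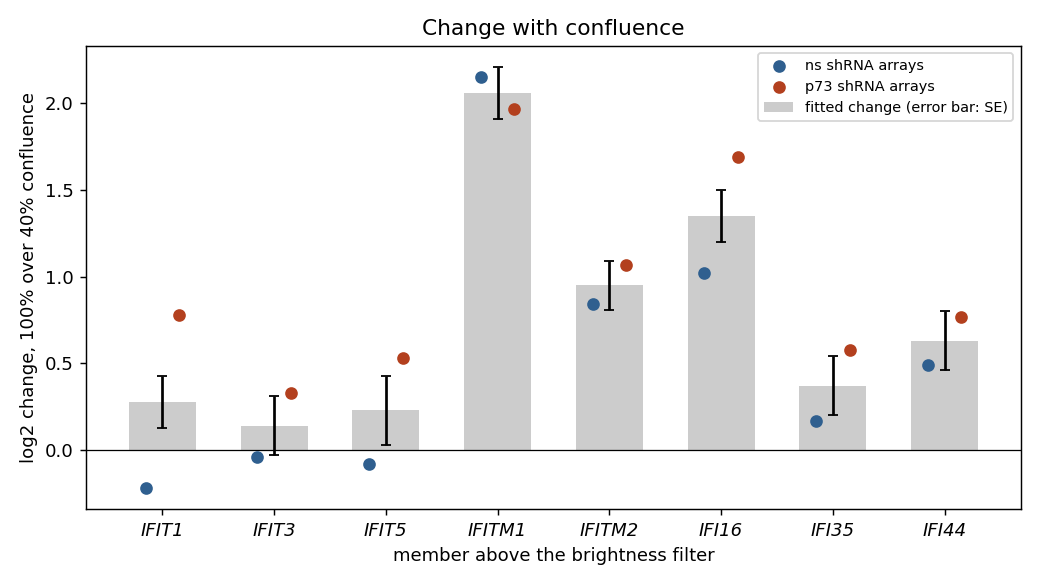
Log2 change from 40% to 100% confluence of the 8 members above the filter: grey bars are the fitted changes with their SE, blue points the change between the ns shRNA arrays and red points that between the p73 shRNA arrays. IFITM1, IFITM2, IFI16 and IFI44 are above 0 with both hairpins, and IFIT1, IFIT3 and IFIT5 have points on either side of 0.

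Other genes of the pathway were taken from 6 lists, fixed with earlier results of these arrays known. Their counts are to be read beside those of all 6759 genes above the filter. Of these, 20.4% rose and 16.1% fell with confluence, and 0.473% were at least 1.5-fold higher with p73 shRNA at both stages. Of the OAS and MX effectors, which destroy or trap viral RNA and nucleocapsids, 6 were above the filter, of which 5 rose with confluence (OAS1, OAS2, OAS3, OASL and MX1) and 0 fell. Between the ns shRNA arrays MX1 changed by only 0.03 and OAS2 by 0.07, against 0.99 and 1.56 between the p73 shRNA arrays. OAS1 changed by 0.57 and 1.66. OAS3 had 907 and 1001 with ns shRNA at 40% and 100%, and 1109 and 2262 with p73 shRNA. The rise of MX1, OAS2 and OAS3 thus lay mostly in the p73 shRNA arrays. With p73 shRNA 3 of the 6, OAS1, MX1 and MX2, were at least 1.5-fold higher at both stages, and the median ratios were 0.72 at 40% and 1.55 at 100%. OAS1 and MX2 were below the intensity of the filter on both ns shRNA arrays, so they passed it only through the p73 shRNA arrays, and their ratios support nothing. OAS1, a synthetase of the activator of RNase L, had ratios of 1.10 and 2.18. Its arrays at 40%, at 66.8 (ns) and 156.1 (p73), average below the filter on the log2 scale, which favours its call with confluence. Among other IFI-named and IFITM genes the 4 above the filter, IFITM3, IFI6, IFI27 and IFIH1, rose with confluence, and 2 of them, IFI6 and IFI27, were 1.5-fold higher with p73 shRNA at both stages. IFI27 was below that intensity on both arrays at 40% and passed only through those at 100%, where it is high, which favours its call. Its ns shRNA arrays, at 67.6 and 113.4, also average below the filter on the log2 scale, so its p73 ratios support nothing. The arrays of IFIH1 at 40%, at 127.5 (ns) and 46.8 (p73), average below the filter too, which favours its call. IFI6, a small interferon-induced membrane protein, had intensities of 262 and 439 at 40% and 371 and 1019 at 100%. IFITM3, which restricts viruses in endosomes, had 2473 and 3341 at 40% and 5407 and 8809 at 100%, in the order seen for IFITM1 and IFITM2. Its probe set is of the same cross-binding class as that of IFITM2, so this is no independent value.

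Of the ligands, receptors and transcription factors of the pathway 13 were above the filter, of which 7 rose with confluence and 0 fell. For this list and those that follow, the shares of all genes were again 20.4% and 16.1%, and 0.473% for 1.5-fold with p73 shRNA at both stages. Their p73 ratios had medians of 0.02 and 0.16, and 2 of the 13 were 1.5-fold higher at both stages. Those were USP18, a protease that removes ISG15 and damps the receptor (0.89 and 0.73), and IRF9, the DNA-binding part of the complex at the ISRE (0.66 and 0.63). The ns shRNA arrays of USP18, at 82.3 and 120.8, average below the filter on the log2 scale, so its ratios support nothing. The RNA and DNA sensors had 6 above the filter, of which RIGI and IFIH1 rose with confluence and 0 fell, and their median p73 ratios were -0.26 and 0.26. RIGI, a cytosolic RNA sensor, was the 1 of the 6 past 1.5-fold at both stages (0.70 and 0.74). In the list of MHC class I loading 8 of 15 rose with confluence and 1, the chaperone CALR, fell. The medians with p73 shRNA were 0.34 and 0.20, and 1 gene, the peptide transporter subunit TAP2, was past 1.5-fold at both stages (0.81 and 0.90). Of 27 other interferon-stimulated genes, 16 rose and 1 (TRIM14) fell with confluence, and 1 was 1.5-fold higher with p73 shRNA at both stages, with medians of 0.25 and 0.55. Of the 16, GBP2 and SERPING1 passed the filter only through the arrays at 100%. The gene past 1.5-fold was TRIM22, a ubiquitin ligase family member with antiviral activity (1.05 and 1.35). Its ns shRNA arrays, at 64.2 and 152.8, average below the filter on the log2 scale, so these ratios support nothing. Its arrays at 40%, at 64.2 (ns) and 145.0 (p73), average below the filter too, which favours its call with confluence. Names given only to complete a count, such as CALR, TRIM14, GBP2 and SERPING1, were chosen after their values were seen. IFIH1 is in 2 of the lists. No test compared the lists with the 10 members.

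The members' own median profile, centred on its mean, was -0.47 (ns) and -0.07 (p73) at 40% and -0.15 and 0.76 at 100% on the log2 scale. IFI44 and IFI35 lay closest to it, at root mean square distances of 0.083 and 0.108 over the 4 arrays, and IFITM1 and IFI16 farthest, at 0.779 and 0.513. Of 6751 other genes the closest 5 were UBE2L6 (distance 0.052), ISG15 (0.089), OAS3 (0.099), PLSCR1 (0.107) and RIGI (0.128). All 5 belong to the lists above. UBE2L6 had intensities of 686 and 908 at 40% and 898 and 1546 at 100%. ISG15, a ubiquitin-like protein, had 1946 and 2300 at 40% and 2049 and 4222 at 100%. The likeness rests on 4 arrays and describes a shape only.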

How the data were processed

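The authors deposited 1 linear intensity per probe set and array; per the labels' protocols, total RNA was extracted with trizol and labelled with biotin by the Affymetrix procedure. Which software summarised them is not given in the sources used. Trimmed by 2% at each end, the arrays all average 500.1 to 500.2, so the values were taken as scaled and used as deposited. Of 22277 probe sets, 62 controls were left out; 19064 had 1 gene symbol, 1043 several and 2108 none in the platform annotation, and 19052 of the single ones were updated by Entrez ID. Groups came from the sample titles.

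The tests used limma 3.58.1 in R 4.3.3 (lmFit and eBayes with an intensity trend, two-sided, all 4 arrays, 1 residual degree of freedom) on log2(intensity + 11.6), the constant being the 20th percentile of all values. The prior degrees of freedom were infinite. On simulated data for the confluence comparison (6759 genes, 200 changed) the fit recovered 100% of 2-fold and of 4-fold changes, with 1.96% of calls false. The simulated noise depended on brightness alone, as the fit assumes, with no shRNA effect and no spread particular to a gene. Good recovery was thus built in, and it does not show the error rate on these arrays. Scaling to a common mean hides changes shared by most of the signal. Members, lists and rules were chosen with earlier results of these data known. Named were all members, the 5 genes nearest their median profile and up to 4 genes of each list by p73 ratio (a part of these is printed). Alternatives were quantile normalization, constants at the 5th or 40th percentile, no filter or one at the 70th percentile, averaged probe sets, no trend, no shRNA term and a 2-fold threshold. Figures were drawn with matplotlib 3.10.9.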

Additional observations from a re-analysis of the deposited data

Results flagged for a closer look

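Some members had ratios of opposite sign in the groups compared, each with 1 array a group, and the differences were not tested. With p73 shRNA, IFI16 was lower than with ns shRNA at 40% confluence and higher at 100%, a difference of 0.67 in the log2 ratio, and IFIT5 did likewise by 0.61, although its ratio at 40% was only -0.04. With confluence, IFIT1 was lower in the ns shRNA cells and higher in the p73 shRNA cells, with changes that differ by 1.00. IFIT3 (0.37) and IFIT5 (0.61) had the same signs, the change of IFIT3 in the ns shRNA cells being -0.04. With 4 arrays, the difference between stages and that between hairpins are the same number for a gene. The reported fit counts this number as error, averaged over genes of like brightness.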

How the results depend on the processing

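The number of members called with confluence was 4 of 8 in the reported fit, where 20.4% of all genes rose and 16.1% fell. Under the 8 alternatives it was 3 to 5. It was 5 of 10 without the brightness filter, where IFI44L joined, beside 912 genes higher and 643 lower of all 11963. Without the shRNA term it was 3 of 8, beside 767 genes higher and 578 lower of all 6759. Of the 64 changes of single members with confluence recomputed under these alternatives, 63 kept their direction and side of the threshold, and 1, IFI44 without the shRNA term, lost its call. The count of members at least 1.5-fold higher with p73 shRNA at both stages was 2 of 8, against 0.473% of all genes. For the alternatives to this count the share of all genes was not computed. It was 1 with the constant at the 40th percentile and 1 with averaged probe sets, where IFI44 dropped out, 3 of 10 without the filter, and 0 at a threshold of 2-fold. Of 48 recomputed mean p73 ratios 1 turned: that of IFI16 was -0.01 from its brightest probe set and 0.12 with its probe sets averaged, as its probe sets differ at 40%. Signal over background limits IFIT2 and IFI44L. The reported fit already sets the stages against each other within each hairpin, and the labels give no replicate numbers.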

Other observations

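IFIH1, the RNA sensor MDA5, carries the IFI prefix without belonging to the families above. Its brighter probe set had intensities of 127.5 (ns) and 46.8 (p73) at 40% and of 292.3 and 429.0 at 100%, log2 ratios of -1.25 and 0.54. A second probe set lay below the brightness filter, at 30.7 or less on every array, and gives no usable ratio for either comparison. By the brighter probe set IFIH1 rose with confluence by 2.02 (SE 0.26, limma adjusted p 8.51e-13), by 1.13 with ns shRNA and 2.92 with p73 shRNA. These changes differ by 1.79, a spread that the SE and p-value, taken from genes of like brightness, leave out. The p73 shRNA array at 40%, at 46.8, lay below the intensity of the filter and enters both the change of 2.92 and the ratio of -1.25.

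IFI27, an interferon-induced mitochondrial and nuclear membrane protein, had intensities of 67.6 (ns) and 109.6 (p73) at 40% and 113.4 and 254.5 at 100%. The p73 shRNA array of confluent cells was the highest. As given above, the gene passed the filter only through the arrays at 100%, so this order supports nothing.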
